A study of Mus musculus with 6 samples.

Results

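The genes described are 10 members of the Notch pathway, chosen by name among the 46983 genes counted in whole hearts of mouse embryos at E13.5. They are the receptors Notch1 and Notch3, the ligands Jag1 and Dll4, the glycosyltransferase Lfng, and the target genes Hes1, Hey1, Hey2, Heyl and Nrarp. All 10 were found under their gene names and all 10 passed the filter on low counts, as did 17473 genes in all.

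The study compared 3 mutant hearts (replicates 1, 5 and 10) with 3 hearts labelled wild type (replicates 2, 3 and 5), with 1 heart in each library. The mutant carried TnnT2Cre and Wt1flox, so that Wt1, a zinc finger transcription factor, was deleted where the troponin T promoter drove Cre. That promoter is active in the cardiomyocyte lineage, and the study's methods and text place some recombination in the epicardium as well. According to those methods the wild type hearts lacked Cre and had both Wt1 alleles floxed, so both groups carried floxed alleles. All hearts came from a C57BL/6 x DBA/2 background. The labels do not say whether embryos shared a litter.

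Notch signalling passes between touching cells. A ligand of the Jagged or Delta-like family on one cell pulls on a Notch receptor of its neighbour, the receptor is cleaved, and its intracellular part joins the DNA-binding protein Rbpj to switch on Hes and Hey repressors. In the embryonic heart the pathway is known for its use in endocardium during trabeculation and cushion formation, in arterial endothelium, and in the mural cells that cover vessels.

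Wt1 itself stood at 39.97, 32.9 and 19.97 CPM (counts scaled to a common library size, with TMM factors between hearts) in wild type replicates 2, 3 and 5, and at 17.7, 33.3 and 35.7 CPM in mutant replicates 1, 5 and 10. The groups overlapped, with a log2 fold change of -0.10 (SE 0.31), and a count over the whole gene does not separate recombined from intact alleles. Total counts per heart lay between 44244665 and 56373393. Wild type replicate 5 stood apart in that its level relative to the mean of all hearts fell with transcript length (Spearman's rho -0.65 across 11784 genes, against -0.08 to 0.52 in the other 5 hearts). Wild type replicate 3 held 758 CPM of summed hepatocyte markers, against 0.801 to 19.7 CPM in the others. All 10 myocardial markers listed for the heart were above the detection limit of 3 counts. In wild type hearts the summed level of 12 endothelial and endocardial markers ran from 1024 to 1504 CPM, with a mean of 1265. In mutant hearts it ran from 1338 to 1676 CPM, with a mean of 1534. The ranges overlapped (exact two-sided permutation test, p = 0.2). By sign 11 of these 12 markers were higher in the mutant and 1 lower, where 8699 of the 17473 genes tested were higher. The log2 fold changes of the 12 ran from -0.55 to 0.35. Their median was 0.29, and 0.14 without wild type replicate 5. Since whole hearts were sequenced, fewer cells of a type and less RNA per cell cannot be told apart.

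Of the 10 members, Lfng, Hey1 and Heyl had the lowest mutant levels relative to wild type, at 0.654, 0.733 and 0.727 of the wild type level, while the other 7 lay between 0.907 and 1.18. None of the 10 passed an adjusted p of 0.05 in the quasi-likelihood test of edgeR, Benjamini-Hochberg adjusted over all genes, and neither did any other gene (0.0% of the 17473 tested). At an unadjusted p under 0.05 the same test gave 2 of the 10 members, Lfng and Hey1, both lower in the mutant, where 1002 genes, 5.73% of those tested, had such a p (2.59% lower and 3.14% higher). DESeq2 gave an adjusted p under 0.05 to 132 genes (0.66% of those it adjusted) and to none of the 10. By sign, 4 members were higher and 6 lower, with a median log2 fold change of -0.11, against -0.001 over all genes tested.

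**Figure D1:**
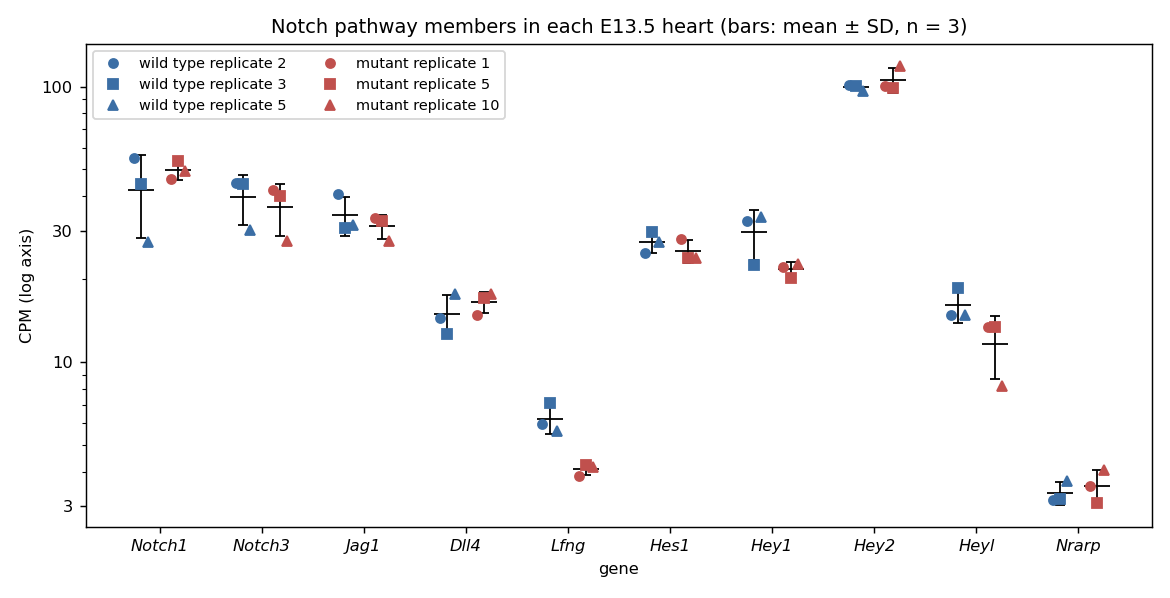
Level of each of the 10 genes in each heart in CPM, on a log axis, with wild type hearts in blue and mutant hearts in red; black bars give the mean and SD of 3 hearts. The red points of Lfng and Heyl lie below all blue points, while in the other 8 genes the groups overlap.

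Levels can be compared between genes only per length, and the 10 genes covered a wide range on that scale. In CPM per kilobase of the longest coding transcript, Hey2 was the most abundant in wild type hearts at 39.0 ± 0.929 (SD, n = 3), followed by Hes1 at 18.6 ± 1.60 and Hey1 at 12.2 ± 2.52. These 3 did not overlap with each other or with the next gene. Jag1 (6.11), Notch3 (4.94), Notch1 (4.45), Dll4 (3.99) and Heyl (3.54) followed, and each of these overlapped with its neighbour in the order. Lfng at 2.70 and Nrarp at 1.29 came last, each apart from the gene above it. The mutant order was the same but for Notch1 and Notch3, which changed places with overlapping ranges.

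The deposited FPKM values gave another order. There Hey2 at 39.4 and Hes1 at 38.5 FPKM overlapped in wild type hearts, and Heyl lay above Dll4 and Notch3, so the separation of Hey2 from Hes1 held on the first scale and not on this one. On that scale Notch1 ranked number 3 in wild type hearts at 28.1 FPKM, whereas per kilobase of the longest coding transcript it ranked number 6. The length behind its FPKM was 1519 bases, the mean over its 11 annotated transcripts, short fragments included, while its longest coding transcript has 9488 bases. For 78.0% of 26680 genes the length used lay within 1% of such a mean. Notch3 was deposited with 8044 bases, close to its longest coding transcript of 8016 bases. A ratio of Notch1 to Notch3 in deposited FPKM therefore carries this difference of lengths, whereas a comparison of 1 gene between hearts does not.

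Notch1, the main receptor of endocardium and endothelium (ENSMUSG00000026923, GRCm38 chr2:26457903-26516663, minus strand), stood at 55.0, 44.4 and 27.2 CPM in wild type replicates 2, 3 and 5. In mutant replicates 1, 5 and 10 it stood at 46.1, 53.7 and 49.3 CPM. The mutant hearts lay close together and inside the wild type range, which was wide because wild type replicate 5 was low. Notch1 had a log2 fold change of 0.24 (SE 0.23, 95% interval -0.29 to 0.76), with an adjusted p of 0.985 in edgeR's quasi-likelihood test. With each heart left out in turn it ran from 0.0016 without wild type replicate 5 to 0.48 without wild type replicate 2. With the length trend removed it was 0.14, and with the level of endothelial markers as a covariate it was -0.14.

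Notch3, the receptor known from mural cells and vascular smooth muscle (ENSMUSG00000038146, chr17:32120820-32166852, minus strand), stood at 44.7, 44.1 and 30.1 CPM in wild type and at 42.0, 40.2 and 27.5 CPM in mutant hearts, in the same replicate order. Each group held 1 low heart, wild type replicate 5 and mutant replicate 10, and the ranges overlapped almost wholly. For Notch3 the log2 fold change was -0.12 (SE 0.20, 95% interval -0.59 to 0.35). The summed level of 8 mural and smooth muscle markers averaged 1436 CPM in the wild type and 1519 CPM in the mutant group, with overlapping ranges.

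Among the 4 mouse Notch receptors, Notch1 held 41.1% to 53.0% of the summed deposited FPKM in wild type and 54.5% to 55.9% in mutant hearts, ranges that did not overlap (exact two-sided permutation test over hearts, p = 0.1, the smallest that 3 against 3 hearts allow). Per kilobase of the longest coding transcript its share was 25.1% ± 3.57 in wild type and 30.2% ± 2.41 in mutant hearts (SD, n = 3), and there the ranges overlapped (exact permutation p = 0.2). On this scale the 4 receptors were present at similar levels in wild type hearts, with 23.1% for Notch2, 28.5% for Notch3 and 23.3% for Notch4. The separation of the Notch1 share thus held only in the deposited FPKM among the 3 scales compared, the count sum included. Notch2 and Notch4 had log2 fold changes of -0.02 (SE 0.20) and -0.11 (SE 0.14).

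Jag1, the Jagged ligand of endothelium, smooth muscle and endocardium (ENSMUSG00000027276, chr2:137081456-137116644, minus strand), stood at 40.7, 30.7 and 31.5 CPM in wild type hearts. In mutant hearts it stood at 33.2, 32.6 and 27.4 CPM. Wild type replicate 2 was the highest heart and mutant replicate 10 the lowest, and the other 4 lay within 3 CPM of each other. For Jag1 the log2 fold change was -0.14 (SE 0.14, 95% interval -0.47 to 0.18).

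Dll4, the Delta-like ligand of arterial endothelium and endocardium (ENSMUSG00000027314, chr2:119325784-119335962, plus strand), stood at 14.5, 12.6 and 17.7 CPM in wild type and at 14.9, 17.1 and 17.6 CPM in mutant hearts. All 3 mutant hearts lay above wild type replicates 2 and 3 and below wild type replicate 5. The log2 fold change was 0.15 (SE 0.15, 95% interval -0.20 to 0.49), and with a heart left out it ran from 0.04 without wild type replicate 3 to 0.29 without wild type replicate 5. Of the summed ligand level per kilobase, Jag1 held 35.5%, Dll4 23.4%, Dll1 20.7% and Jag2 20.1% in wild type hearts, and 33.1%, 26.4%, 22.4% and 17.9% in mutant hearts. No ligand share separated the groups on that scale. In deposited FPKM the Jag2 share did, narrowly, at 12.51% to 14.84% in wild type and 11.74% to 12.50% in mutant hearts. The exact two-sided permutation test gave p = 0.1 there, the smallest possible. In counts the Jag2 share overlapped between groups. In single genes, Jag2 was lower in all 3 mutant hearts (14.9 to 15.7 CPM) than in all 3 wild type hearts (16.4 to 18.1 CPM), with a log2 fold change of -0.19 (SE 0.10). Dll1 had a log2 fold change of 0.07 (SE 0.17), and Dll3 had 2 to 13 counts per heart and was not tested.

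Lfng, or lunatic fringe, is a Golgi enzyme that adds N-acetylglucosamine to O-fucose on Notch receptors and so shifts their response towards Delta-like ligands (ENSMUSG00000029570, chr5:140607320-140615545, plus strand). Its counts were 336, 408 and 248 in wild type and 201, 221 and 209 in mutant hearts. In CPM these were 5.97, 7.09 and 5.63 against 3.87, 4.22 and 4.15. All 3 mutant hearts lay below all 3 wild type hearts and close to each other. Groups that did not overlap were seen in 2 of the 10 members, Lfng and Heyl, both lower in the mutant, and in 11.2% of all genes tested (4.59% lower and 6.61% higher in the mutant).

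Lfng had a log2 fold change of -0.61 (SE 0.16, 95% interval -0.99 to -0.24) and a percent change of -34.6, with an unadjusted p of 0.00538 and an adjusted p of 0.547 in edgeR's quasi-likelihood test. Its p ranked number 169 of the 17473 genes tested. DESeq2 gave an adjusted p of 0.141, and its only adjusted p under 0.05 among the alternatives was 0.0333, in DESeq2 without wild type replicate 5, where 2.52% of the genes it adjusted had one. Across the 22 alternatives the log2 fold change lay between -0.70 and -0.50 and the unadjusted p was under 0.05 in all 22. Mfng and Rfng, the other fringe enzymes, had log2 fold changes of -0.34 (SE 0.23) and -0.23 (SE 0.12). Rfng was also lower in all mutant hearts (13.1 to 16.3 CPM) than in all wild type hearts (16.5 to 18.2 CPM), whereas Mfng overlapped between groups. The share of Lfng in the fringe sum per kilobase, 15.2% ± 2.60 in wild type and 12.3% ± 0.337 in mutant hearts (SD, n = 3), overlapped between groups.

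Of the 7 members with a promoter entry in RefSeq (GRCm38.p6), 2 held the letters TGGGAA, the core that Rbpj is known to bind, on either strand in the window from 250 bases before to 5 bases after the start. They were Lfng and Hey2, shown because the first had the largest log2 fold change of the 10 members by size and the second overlapped between groups. In both lines TGGGAA, or its reverse complement, and the E-box CACGTG are in capitals, and the sequence runs 5′ to 3′ along the gene.

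Lfng, chr5:140607091-140607345, plus strand: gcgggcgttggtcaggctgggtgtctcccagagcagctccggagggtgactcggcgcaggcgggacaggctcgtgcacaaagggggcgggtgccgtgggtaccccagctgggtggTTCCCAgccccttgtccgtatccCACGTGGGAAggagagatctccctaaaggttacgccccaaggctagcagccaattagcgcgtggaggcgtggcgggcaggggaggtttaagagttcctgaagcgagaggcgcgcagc

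Hey2, chr10:30842779-30843033, minus strand: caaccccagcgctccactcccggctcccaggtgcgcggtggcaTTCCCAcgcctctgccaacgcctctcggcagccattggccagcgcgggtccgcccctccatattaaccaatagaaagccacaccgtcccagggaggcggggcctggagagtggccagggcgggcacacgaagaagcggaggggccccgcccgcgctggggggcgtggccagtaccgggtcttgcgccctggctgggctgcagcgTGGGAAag

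TGGGAA occurred in 22.0% of 32851 windows of this length and the longer CGTGGGAA in 0.645%. The Lfng window held TGGGAA at 2 places, the nearer beginning 108 bases before the start, where it lies in a CGTGGGAA that overlaps a CACGTG. The Hey2 window also held it at 2 places, each within a CGTGGGAA, of which 1 spans the start and 1, on the other strand, begins 207 bases before it in the printed direction. CACGTG occurred in 6.21% of windows, and among the members in Lfng and Nrarp. Notch1, Notch3, Jag1 and Dll4 held neither set of letters in this window, and no window was examined for Hes1, Hey1 and Heyl. Matching letters are a description of the sequence and do not show binding.

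**Figure D2:**
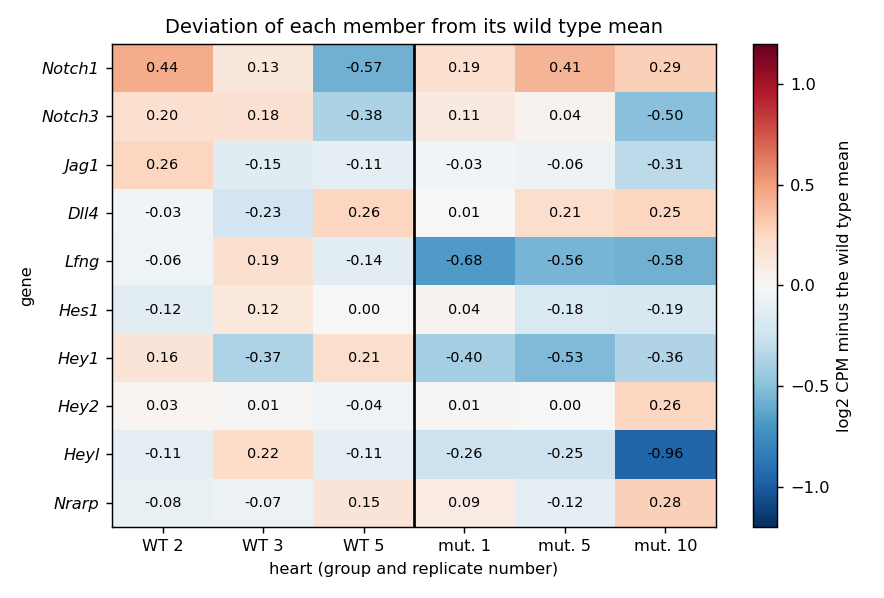
Deviation of log2 CPM from the wild type mean, for each gene (rows) in each heart (columns), on a colour scale from blue (lower) to red (higher), with the value printed in each cell. Lfng, Hey1, Heyl and Jag1 are negative in all 3 mutant hearts. Lfng and Heyl are also negative, by less than in any mutant heart, in wild type replicates 2 and 5. Jag1 is also negative in wild type replicates 3 and 5 (-0.15 and -0.11), by more than in mutant replicates 1 and 5 (-0.03 and -0.06). Hey1 in wild type replicate 3 lies among the mutant values, and Notch1 is lowest in wild type replicate 5.

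The Hey genes, basic helix-loop-helix repressors switched on by Notch, differed from each other. Hey1, expressed in atrial myocardium and in endothelium (ENSMUSG00000040289, chr3:8663359-8667256, minus strand), stood at 32.5, 22.6 and 33.7 CPM in wild type hearts. In mutant hearts it stood at 22.1, 20.1 and 22.8 CPM. Wild type replicate 3 lay among the mutant hearts, so the groups overlapped, and the other wild type hearts were above them. Hey1 had a log2 fold change of -0.45 (SE 0.16, 95% interval -0.82 to -0.08), with an unadjusted p of 0.0222 and an adjusted p of 0.765 in edgeR's quasi-likelihood test. Without wild type replicate 3 it was -0.61, and the adjusted p was then 0.439 in edgeR and 0.0389 in DESeq2 (where 0.573% of the genes it adjusted were past 0.05), the only alternative that carried Hey1 past the threshold. The unadjusted p was under 0.05 in 16 of 22 alternatives, and it was 0.0705 with endothelial markers as a covariate.

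Hey2, the Hey factor of ventricular compact myocardium (ENSMUSG00000019789, chr10:30832359-30842801, minus strand), stood at 101, 100.2 and 96.7 CPM in wild type and at 100.2, 99.2 and 119 CPM in mutant hearts. The other 5 hearts lay within 5 CPM of each other and mutant replicate 10 stood above them all. Hey2 had a log2 fold change of 0.09 (SE 0.11, 95% interval -0.15 to 0.34), and without mutant replicate 10 it was 0.0062.

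Heyl, the Hey factor known from vascular smooth muscle (ENSMUSG00000032744, chr4:123233556-123249875, plus strand), stood at 14.8, 18.6 and 14.8 CPM in wild type and at 13.4, 13.4 and 8.21 CPM in mutant hearts. All mutant hearts lay below all wild type hearts, mutant replicates 1 and 5 by a small margin and mutant replicate 10 by a large one. Its log2 fold change was -0.46 (SE 0.20, 95% interval -0.93 to 0.01), with an unadjusted p of 0.0544 and an adjusted p of 0.889 in edgeR's quasi-likelihood test. Without mutant replicate 10 it was -0.26, and without wild type replicate 3 it was -0.34.

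Within the summed Hey level, the share of Hey2 separated the groups and the shares of Hey1 and Heyl did not. Hey2 held 70.4%, 74.5% and 68.8% of the sum per kilobase in wild type replicates 2, 3 and 5 and 76.5%, 77.5% and 80.6% in mutant replicates 1, 5 and 10. Every mutant heart was above every wild type heart, a difference of 6.94 percentage points (exact two-sided permutation test, p = 0.1, the smallest possible). The groups were also apart in deposited FPKM (54.8% and 63.7%) and in counts (68.6% and 76.0%). Hey1 held 22.2% in wild type and 16.9% in mutant hearts per kilobase, with overlapping ranges (exact permutation p = 0.2), and Heyl 6.48% and 4.92% (exact permutation p = 0.3). The 3 shares sum to the whole, so they are not independent of each other.

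**Figure D3:**
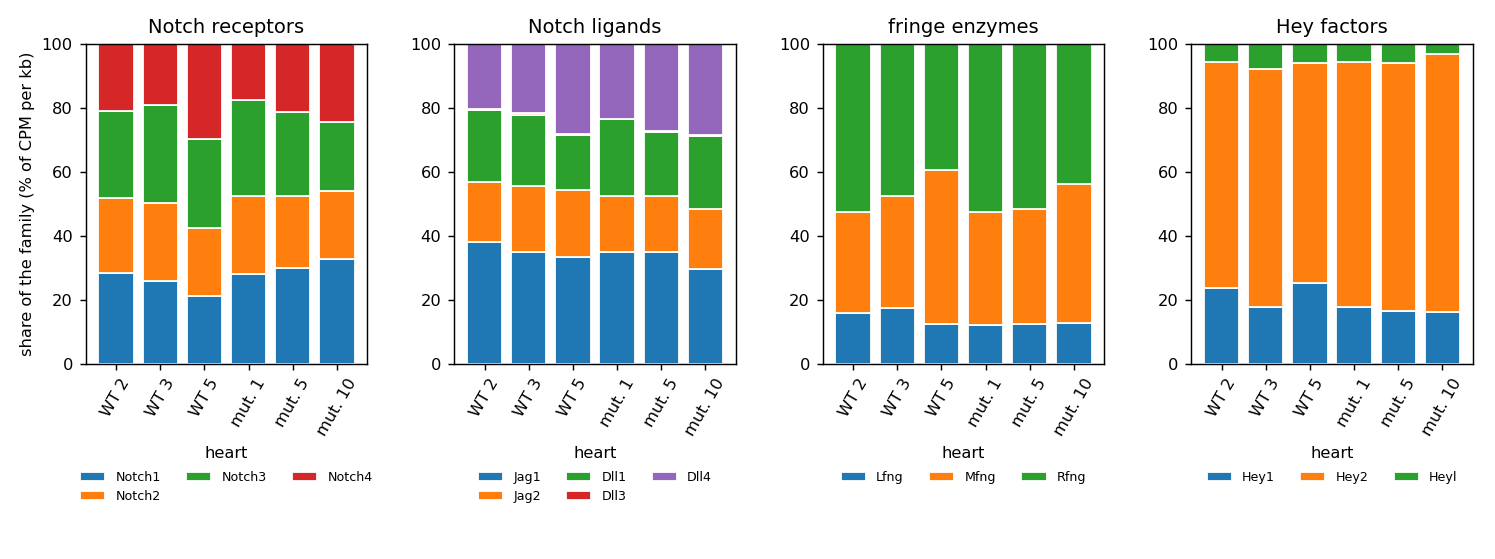
Share of each gene in the summed CPM per kilobase of its family, in percent, for the Notch receptors, the Notch ligands, the fringe enzymes and the Hey factors, with 1 stacked bar per heart. The Hey2 part of the bar is 68.8% to 74.5% in wild type and 76.5% to 80.6% in mutant hearts, and the 4 receptors take similar parts.

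Hes1, a repressor used by many tissues downstream of Notch (ENSMUSG00000022528, chr16:30064384-30067796, plus strand), stood at 24.9, 29.6 and 27.2 CPM in wild type and at 28.1, 23.9 and 23.8 CPM in mutant hearts. The ranges overlapped, with mutant replicate 1 among the wild type hearts. The log2 fold change was -0.11 (SE 0.12, 95% interval -0.38 to 0.16). Of the other Hes genes, Hes6 was the more abundant per kilobase, with 71.8% of the Hes sum in wild type hearts against 27.9% for Hes1, and Hes6 and Hes7 had log2 fold changes of -0.09 (SE 0.14) and -0.16 (SE 0.50). Hes3 and Hes5 had 0 counts in every heart and Hes2 had at most 2. These genes were therefore at or under the detection limit of 3 counts.

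Nrarp, a target that feeds back on the Notch intracellular domain (ENSMUSG00000078202, chr2:25180758-25183339, plus strand), stood at 3.14, 3.18 and 3.70 CPM in wild type and at 3.56, 3.07 and 4.05 CPM in mutant hearts. Its 163 to 204 counts per heart gave overlapping ranges and a log2 fold change of 0.09 (SE 0.19, 95% interval -0.35 to 0.54). A gene model on the other strand, Gm38287, shares 79.4% of its exon bases and had 0 counts in every heart, and the strand setting of the counting is not given in the sources used here. Exon bases shared with opposite-strand genes made up 9.76% of Notch1, 6.03% of Notch3 and 5.56% of Dll4, and none of the other 6 members.

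**Figure D4:**
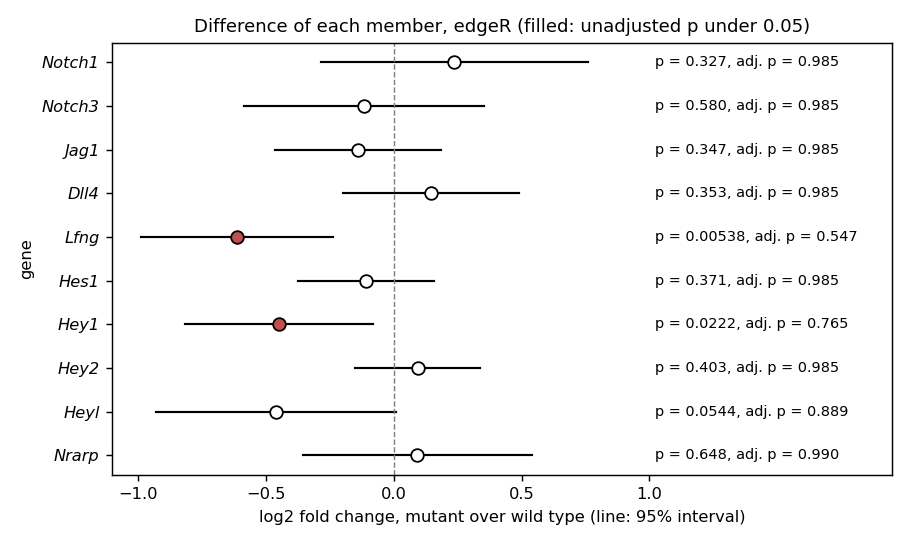
Log2 fold change of each gene, mutant over wild type, with its 95% interval from edgeR; filled points have an unadjusted p under 0.05. The intervals of Lfng (-0.99 to -0.24) and Hey1 (-0.82 to -0.08) lie below 0, that of Heyl reaches 0.01, and the other 7 span 0.

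By point estimate the 5 targets differed in sign. The percent change was -26.7 for Hey1, -27.3 for Heyl and -7.31 for Hes1, while it was 6.70 for Hey2 and 6.59 for Nrarp. Only the interval of Hey1 among these 5 excluded 0. The widest reach of a 95% interval among the members was -0.99 for Lfng below 0 and 0.76 for Notch1 above 0, on the log2 scale.

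Outside the 10 members, 53 further genes of the pathway were listed by role and 49 were tested. None passed an adjusted p of 0.05 in edgeR or DESeq2, 25 were higher and 24 lower by sign, and the median log2 fold change was 0.01. In edgeR 2 of the 49 (4.08%) had an unadjusted p under 0.05, against 5.73% of all genes tested. Dner, a Notch ligand without a DSL domain, was lower in all mutant hearts, at 2.82, 2.21 and 2.45 CPM in wild type and 1.46, 1.16 and 1.33 CPM in mutant hearts (log2 fold change -0.92, SE 0.23, adjusted p 0.488 in edgeR and 0.0879 in DESeq2). Dtx3l, a Deltex-family ubiquitin ligase, was higher in all mutant hearts (log2 fold change 0.61, SE 0.20, adjusted p 0.696 in edgeR). Among the 49 genes, the groups did not overlap in 5 that were higher and 3 that were lower in the mutant. Over all genes tested, 6.61% were apart and higher and 4.59% apart and lower.

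In the lists of ligand endocytosis, receptor glycosylation, receptor cleavage and the nuclear complex, no gene outside the 10 members had an unadjusted p under 0.05 in edgeR. The gene with the smallest p was Neurl1a among 6 genes of ligand endocytosis (log2 fold change 0.33, SE 0.18), Eogt among 5 of receptor glycosylation (0.20, SE 0.10), Aph1b among 10 of receptor cleavage (0.19, SE 0.11) and Kat2b among 10 of the nuclear complex (0.19, SE 0.10). Rbpj, the DNA-binding partner of the receptors, had a log2 fold change of 0.20 (SE 0.13), and Mib1, the ubiquitin ligase that lets ligands signal, one of 0.16 (SE 0.20).

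**Figure D5:**
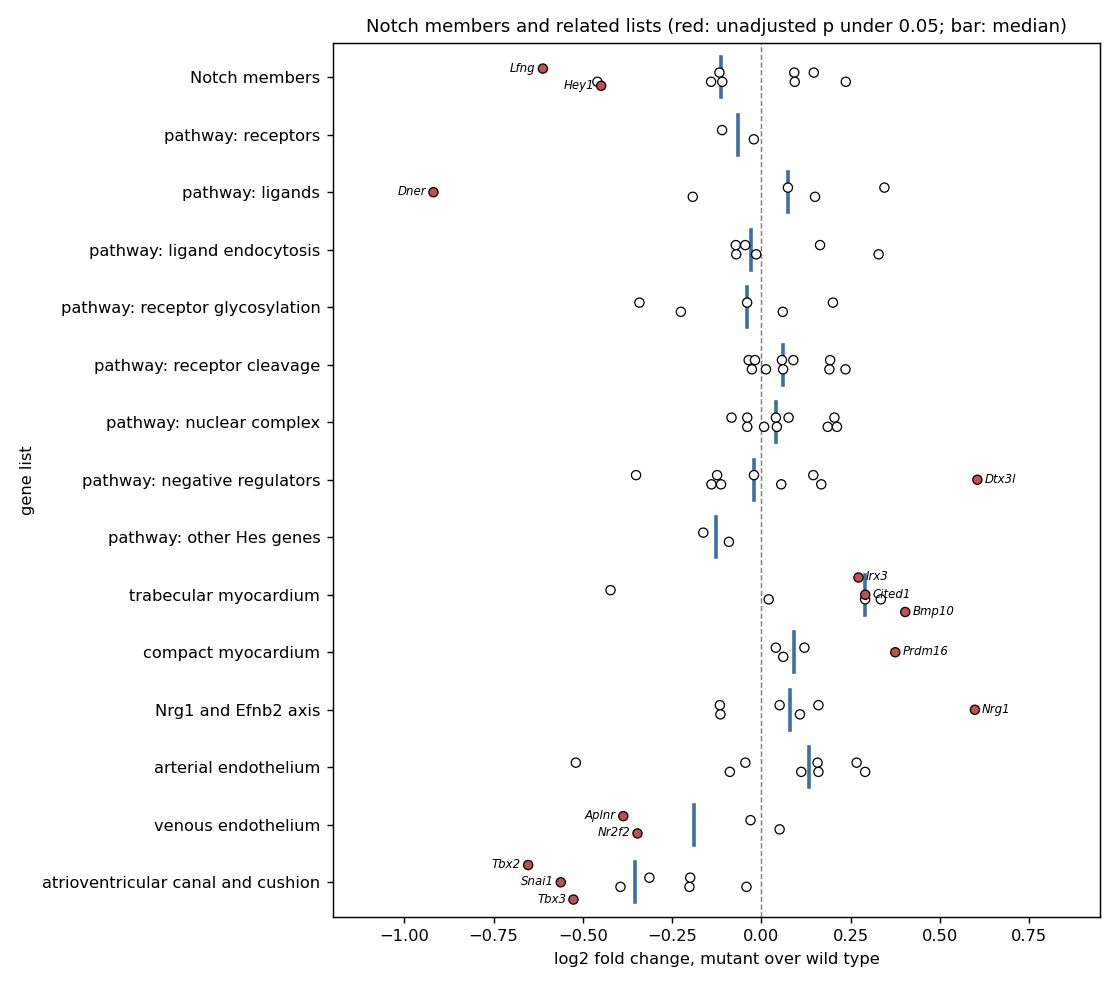
Log2 fold change (mutant over wild type) of each tested gene of the 10 members, of the pathway lists and of 6 lists of cardiac genes related to Notch; red points have an unadjusted p under 0.05 in edgeR and blue bars are list medians. The median is -0.11 for the members, 0.29 for trabecular myocardium and -0.35 for atrioventricular canal and cushion.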

How the data were processed

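RNA was sequenced from 6 hearts. After trimming and STAR alignment to GRCm38, the authors assigned uniquely mapped reads to genes. The submitters' processing notes name HTSeq, the study's methods another counter. They deposited raw counts per gene and FPKM values, each the count scaled by the total of the heart and by 1 fixed length per gene. Of the 46983 genes, 46488 were matched to GENCODE M21. Counts were tested with edgeR 4.0.16 in R 4.3.3 (quasi-likelihood, two-sided, TMM, filterByExpr with a minimum count of 10, no covariate, adjusted p under 0.05). Standard errors are the log2 fold change over the square root of F. Alternatives were DESeq2 1.42.0, limma 3.58.1 (voom, and trend on log2 FPKM plus 1 or 0.1), other size factors and filters, removal of the length trend (local regression, span 0.5), endothelial markers as a covariate and each heart left out. DESeq2 with hearts left out, the length trend without wild type replicate 5, and shares per kilobase were added after the data were seen. The fits were tested on simulated data. Named are all members, the other genes of their families, genes of the lists with an unadjusted p under 0.05 or else the smallest, Rbpj, Mib1 and Wt1. Gm38287, Nppa, Nppb, Sox17, Ephb4, Nrp2, Tcf21, Upk1b, Msln and Myl7 fall outside this rule and were added with their values known. The members and lists were chosen with earlier results of these data known. Replicates are separate hearts, and the detection limit of 3 counts covers counting error only, since reads carried no molecular identifiers.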

Additional observations from a re-analysis of the deposited data

How the results depend on the processing

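No paired analysis was possible because the labels do not pair mutant with wild type hearts. No member and no further pathway gene passed the threshold in any alternative but 2: DESeq2 carried 1 member past it without wild type replicate 3 (Hey1) and 1 without wild type replicate 5 (Lfng). Over all genes the number past the threshold was 0 in the reported fit, 132 with DESeq2, 34 without a filter on low counts, 17 with the length trend removed, 2 with the endothelial covariate, and 36 with the length trend removed and without wild type replicate 5. Leaving out each heart in turn gave 0 to 44 genes in edgeR. In DESeq2 it gave 95, 107 and 447 without wild type replicates 2, 3 and 5, and 143, 71 and 71 without mutant replicates 1, 5 and 10. The cause was not tested. With 3 hearts a group, no exact permutation p can go below 0.1.

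Of 220 values for the members, 211 kept their direction and their side of the threshold, 2 passed it and 7 changed sign. The log2 fold change of Notch1 became -0.14 with the endothelial covariate and -0.0016 in DESeq2 without wild type replicate 5. Leaving out each heart in edgeR gave Jag1 values from -0.21 to 0.0029, Notch3 from -0.28 to 0.053 and Nrarp from -0.0089 to 0.18. In DESeq2 without mutant replicate 10, Notch3 became 0.050 and Nrarp -0.0095. The share of Hes1 in its family, lower by 0.525 percentage points in the mutant (-0.525) in deposited FPKM, ran from -2.82 to 1.29 with a heart left out, and was 1.12 without mutant replicate 10.

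Among the other named genes, 28 of 615 values changed sign. With the endothelial covariate, Hes6 became 0.11, Dll1 -0.068, Mfng 0.020 and Mib1 -0.12. With each heart left out in edgeR, Hes6 ran from -0.18 to 0.066, Dll1 from -0.058 to 0.24, Mib1 from -0.041 to 0.31, Notch2 from -0.22 to 0.13, Notch4 from -0.20 to 0.0096, Hes7 from -0.37 to 0.33 and Wt1 from -0.33 to 0.16. Notch2 became 0.0018 in limma-voom. In DESeq2 without wild type replicate 5, Hes6 became 0.063, Dll1 -0.062 and Mib1 -0.044. In edgeR with the length trend removed and without wild type replicate 5, Dll1 was -0.052. In DESeq2 Notch2 became 0.12, 0.049 and 0.082 without wild type replicates 2 and 3 and mutant replicate 10. Without mutant replicate 1, Notch4 became 0.011, Hes7 0.14 and Wt1 0.16 there. Without wild type replicates 3 and 2, Hes7 became 0.33 and Wt1 0.13.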

Other observations

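Lists of cardiac genes known from work on Notch in the heart were read in the same edgeR fit. No gene of them passed an adjusted p of 0.05. Because the lists were chosen with earlier results of these data known, their shares set beside those of all genes are a description and not a test. In the trabecular list 3 of 7 genes had an unadjusted p under 0.05, all higher in the mutant, where 3.14% of all genes tested were so. Bmp10, a growth factor of trabecular myocardium, stood at 167, 162 and 124 CPM in wild type and at 186, 241 and 172 CPM in mutant hearts (log2 fold change 0.40, SE 0.17). Every mutant heart was above every wild type heart. Cited1 and Irx3 had log2 fold changes of 0.29 (SE 0.10) and 0.27 (SE 0.11), while Nppa and Nppb of the same list had -0.42 (SE 0.40) and 0.02 (SE 0.32). Nppa stood at 264 CPM in wild type replicate 2, against 85.3 and 99.3 CPM in wild type replicates 3 and 5 and 88.5 to 134 CPM in mutant hearts. With each heart left out in turn, its log2 fold change ran from -0.70 to 0.28. Prdm16 had a log2 fold change of 0.38 (SE 0.12), in a compact myocardium list of 4 genes. Nrg1 is the endocardial ligand that signals to trabecular myocardium. It had 169, 184 and 93 counts in wild type and 214, 212 and 224 in mutant hearts (log2 fold change 0.60, SE 0.21, adjusted p 0.765 in edgeR). Its list, the Nrg1 and Efnb2 axis, held 6 genes, of which 4 were higher and 2 lower by sign. Their median log2 fold change was 0.08, and -0.10 without wild type replicate 5. That of Nrg1 alone ran from 0.44 to 0.72 with each heart left out in turn. No other gene of that list had an unadjusted p under 0.05 in edgeR (16.7% of the list had one, against 5.73% of all genes tested).

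All 8 genes of the atrioventricular canal and cushion list were lower by sign, with a median log2 fold change of -0.35 against -0.001 over all genes tested, of which 8774 of 17473 were lower by sign. In edgeR 3 of the 8 had an unadjusted p under 0.05, where 2.59% of all genes were so and lower. Tbx2, a T-box repressor of the atrioventricular canal, stood at 26.6, 37.6 and 40.0 CPM in wild type and at 25.0, 23.6 and 17.6 CPM in mutant hearts (log2 fold change -0.65, SE 0.19). The groups did not overlap, though wild type replicate 2 lay close to mutant replicate 1. Tbx3 and Snai1 had log2 fold changes of -0.53 (SE 0.15) and -0.56 (SE 0.21). In DESeq2, Tbx2 had an adjusted p of 0.0128 without wild type replicate 2, Tbx3 one of 0.0103 and Cited1 one of 0.0286 without wild type replicate 5, against 0.142, 0.262 and 0.351 with all hearts. In the venous list 2 of 4 genes had an unadjusted p under 0.05 in edgeR, both lower, where 2.59% of all genes were so. These were Nr2f2 and Aplnr, with log2 fold changes of -0.35 (SE 0.12) and -0.39 (SE 0.16). The other genes of that list, Ephb4 and Nrp2, had log2 fold changes of 0.05 (SE 0.14) and -0.03 (SE 0.20). In the arterial list of 8 the smallest p belonged to Gja5 (log2 fold change 0.29, SE 0.14), which is also in the trabecular list. Sox17 of the arterial list had one of -0.52 (SE 0.26). The summed level of 10 myocardial markers averaged 18359 CPM in the wild type and 19617 CPM in the mutant group. By sign 8 were higher and 2 lower, with log2 fold changes from -0.48 to 0.32. In edgeR 1 of the 10, Myl7, had an unadjusted p under 0.05 and was lower, where 2.59% of all genes were so. The summed level of 8 epicardial markers averaged 394 CPM in the wild type and 393 CPM in the mutant group. By sign 4 of these were higher and 4 lower. Of these 8 markers 2 were higher and 1 lower at an unadjusted p under 0.05 in edgeR. Of all genes tested, 3.14% were so and higher and 2.59% so and lower. The higher markers, Upk1b and Msln, had adjusted p of 0.664 and 0.847 in edgeR. In DESeq2 their adjusted p were 0.0951 and 0.602. The lower one, Tcf21, had an adjusted p of 0.113 in edgeR and 1.66e-07 in DESeq2. The summed level of 6 neural crest and glial markers averaged 17.6 and 18.4 CPM, and that of 6 lung and foregut markers lay between 0.941 and 14.5 CPM per heart. The part of these cell types in the results was not tested.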
